A study of Homo sapiens with 6 samples.

Results

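The genes described here are the receptors and transcription factors by which a breast cancer is classed as triple-negative or luminal: ESR1, PGR, ERBB2, ERBB3, EGFR, GATA3, FOXA1, CD44 and CD24. They were chosen by name and looked up by gene identifier among the 27745 genes of the count table. Of the 9 genes, 8 were listed and CD24 is not analysed here. A gene was dropped as too low if 3 or more of the 6 libraries gave fewer than 5 counts for it. PGR was dropped, so 7 of the 9 genes were tested among 15372 genes. RNA-seq was performed on MDA-MB-231 cells, a human triple-negative breast cancer cell line, after infection with lentivirus. All 3 groups carried a short hairpin RNA (shRNA), so no uninfected cells were compared. The control hairpin was sh-TRC (samples CTR1 and CTR2), and 2 hairpins targeted the long non-coding RNA MIR100HG. Libraries KD1-1 and KD1-2 carried sh-MIR100HG-1, while libraries KD2-1 and KD2-2 carried the other hairpin, sh-MIR100HG-2. The study's methods describe collecting infected cells after 72 h for RNA and protein detection. The study calls the samples that share a MIR100HG hairpin biological replicates, and how the sh-TRC samples relate is not given in the sources used here, so p-values measure the spread between these samples, which may be technical in part. Total counts per sample ranged from 43804736 to 64588388. All samples came from 1 cell line.

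ESR1 encodes oestrogen receptor alpha and PGR, one of its target genes, the progesterone receptor. ERBB2 encodes HER2, a receptor tyrosine kinase that binds no ligand of its own and pairs with EGFR, ERBB3 or ERBB4. GATA3 and FOXA1 are transcription factors of luminal breast cells, and FOXA1 opens chromatin for the oestrogen receptor. CD44, the hyaluronan receptor, is read together with CD24 to describe stem-like breast cancer cells. A tumour is called triple-negative from the receptor proteins and from ERBB2 amplification, neither of which was measured here.

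The hairpins are shown to make clear which RNA they address and whether the receptor transcripts hold the same letters. Both targets lie on the minus strand of chromosome 11 (GRCh37), inside an exon counted for MIR100HG, at chr11:121962132-121962152 for sh-MIR100HG-1 and at chr11:121961961-121961981 for sh-MIR100HG-2. Neither 21-base target occurred whole in the annotated transcripts of the 8 listed genes. The longest run shared with any of them was 10 bases, marked in capitals, and it lay in EGFR for the first hairpin and in ESR1 for the second.
sh-MIR100HG-1: ttCCTCTGTTTGtacttaaat
sh-MIR100HG-2: gagagTGACCTACAGaataaa

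MIR100HG itself checks the labels. It had 41.8 and 58.5 CPM (TMM-scaled counts relative to the library total) in the controls, 15.2 and 13.2 CPM with sh-MIR100HG-1, and 16.6 and 10.4 CPM with sh-MIR100HG-2. Neither control overlapped the 4 knockdown libraries, which were lower. The log2 fold change (log2FC) of the mean of both hairpins against sh-TRC was -1.86 (SE 0.25). The adjusted p was 0.381 by edgeR's quasi-likelihood test, which called 0 of 15372 genes in this comparison at an adjusted p at or below 0.05, or 0%, and found 1180 genes, or 7.68%, at an unadjusted p under 0.05.

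Before the genes are compared, it has to be said that CTR2 and KD1-1, a control and a knockdown library, stood apart from the other 4. This was seen in the data and is not given by the labels. In these libraries 139 genes were at least 4 times higher, at 0.5 CPM or more, than in each of the other samples, and 48 of those genes had 0 counts in all of the others. Together the 139 genes took 0.0387% of the counts in CTR2 and 0.0402% in KD1-1, against 0.000979% to 0.00157% elsewhere. KIT, a receptor kinase, had 7.17 CPM in CTR2, 7.44 CPM in KD1-1 and 0 counts in the other 4. CDKN2A, a cell cycle inhibitor whose gene is known to be deleted in MDA-MB-231, had 1.21 CPM in CTR2 and 1.34 CPM in KD1-1. It had 0.0441 CPM in KD2-1 and 0 counts in CTR1, KD1-2 and KD2-2. The basal keratin KRT6A went the other way, with 0.0340 CPM in CTR2 and 0 counts in KD1-1 against 2.53 to 3.26 CPM in the rest. Of the 8 listed genes, ESR1 and FOXA1 were among the 139. What sets these libraries apart was not tested, and the comparisons of the listed genes are given with and without both. In the fit without them CTR1 and KD1-2 were each the lone library of their group, so the spread within groups came from the sh-MIR100HG-2 pair, moderated over all genes, and the lone libraries were assumed to vary like that pair.

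**Figure D1:**
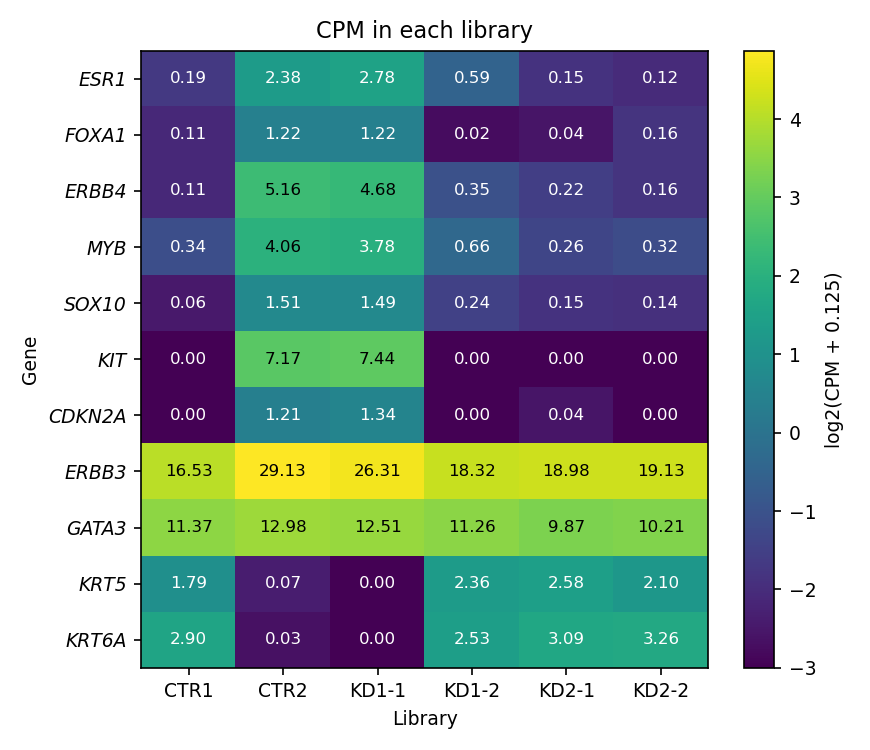
CPM of selected genes (rows) in each of the 6 libraries (columns); the number is the CPM and the colour is the log2 of CPM plus a pseudocount. ESR1, FOXA1, ERBB4, MYB, SOX10, KIT and CDKN2A are highest in CTR2 and KD1-1, where KRT5 and KRT6A are lowest.

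ESR1 (chr6:151977826-152450754, plus strand, GRCh37) was near the floor of detection in most libraries. It had 0.186 CPM in CTR1 (10 counts) and 2.38 CPM in CTR2 (140 counts). It had 2.78 CPM in KD1-1 (185 counts), 0.590 CPM in KD1-2 (25 counts), 0.154 CPM in KD2-1 (7 counts) and 0.120 CPM in KD2-2 (6 counts). The groups overlapped, and the high values were those of CTR2 and KD1-1. The exact (Clopper-Pearson) 95% intervals, which cover counting error only, reached from 0.0892 to 0.342 CPM in CTR1 and up to 2.81 CPM in CTR2, and that of CTR2 did not meet that of CTR1, so the 2 controls differed from each other by more than counting error. ESR1 had a log2FC of -1.40 (SE 0.92, 95% interval -3.51 to 0.71) in knockdown, with an adjusted p of 0.756. Without CTR2 and KD1-1 its direction turned, with a log2FC of 0.60 (SE 0.99, unadjusted p = 0.551 by edgeR), and CTR1 was then the only control.

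Between the hairpins ESR1 was lower with sh-MIR100HG-2 than with sh-MIR100HG-1, with a log2FC of -3.62 (SE 1.24, unadjusted p = 0.0179) and an adjusted p of 0.509. KD1-1 held the highest value of this comparison. With both left out the log2FC was -2.09, and it then compared the 25 counts of KD1-2 alone with the 7 and 6 counts of the sh-MIR100HG-2 samples. Against sh-TRC, sh-MIR100HG-2 had a log2FC of -3.21 for ESR1 (unadjusted p = 0.0292, adjusted p = 0.538) and sh-MIR100HG-1 one of 0.40 (unadjusted p = 0.706).

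PGR (chr11:100900355-101001255, minus strand) had 1 count, in KD1-2, and 0 counts in the other 5 libraries. A count of 0 allows up to 0.0555 to 0.0813 CPM in these libraries at the upper 95% limit. No difference was detectable at this depth.

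ERBB2, the third of the receptors that define the class, was not near 0. ERBB2 (chr17:37844167-37886679, plus strand) had 89.7 and 116 CPM in the controls, 97.3 and 71.6 CPM with sh-MIR100HG-1, and 99.1 and 89.9 CPM with sh-MIR100HG-2. The groups overlapped, and the lowest value was that of KD1-2. The log2FC in knockdown was -0.20 (SE 0.21, 95% interval -0.68 to 0.27), with an adjusted p of 0.860, and it was -0.13 (SE 0.33) without CTR2 and KD1-1. The counted exons of ERBB2 share 571 bases with MIEN1 and 194 bases with PGAP3, both on the opposite strand, and the strand setting of the counting is not given in the sources used here.

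Compared per length, as RPKM (CPM per kilobase of summed exon length), the 8 genes spanned the range from abundant to undetected in the control cells. CD44 stood at 75.3 ± 9.90 RPKM (SD, n = 2), at percentile 98.2 of all 27745 genes. EGFR followed at 33.7 ± 2.10 RPKM (percentile 95.2) and ERBB2 at 9.97 ± 1.81 RPKM (percentile 83.7). GATA3 had 3.74 ± 0.349 RPKM (percentile 71.3) and ERBB3 2.64 ± 1.03 RPKM (percentile 67.6). FOXA1 had 0.168 ± 0.197 RPKM, ESR1 0.0941 ± 0.114 RPKM and PGR 0 RPKM. The SDs of FOXA1 and ESR1 exceeded their means, so their order is not larger than the spread between replicates. FOXA1 was above ESR1 in 4 of 6 samples, whereas each other neighbour in the order kept its place in 6 of 6. GATA3 and ERBB3 overlapped between samples, since the lowest GATA3 value was 3.04 RPKM and the highest ERBB3 value 3.36 RPKM. The summed length counts exons of all transcripts, so a gene used through a short transcript has its level understated.

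**Figure D2:**
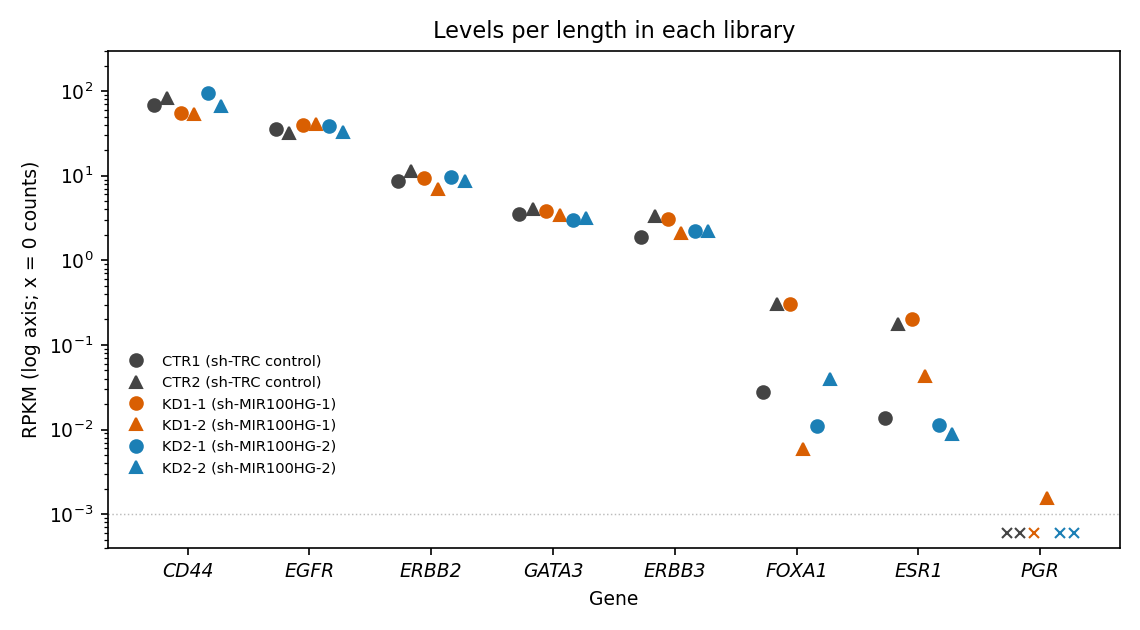
RPKM on a log axis for 8 genes in each of the 6 libraries, with colour for the hairpin and shape for the replicate; a cross below the dotted line marks 0 counts. CD44, EGFR and ERBB2 stand well above FOXA1 and ESR1, whose values in CTR2 and KD1-1 lie above those of the other 4 libraries.

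EGFR (chr7:55086714-55279321, plus strand), the receptor of EGF and TGF-alpha, had 440 and 403 CPM in the controls, 501 and 507 CPM with sh-MIR100HG-1, and 490 and 411 CPM with sh-MIR100HG-2. KD2-2 lay between the controls and the other 3 knockdown samples above both. The log2FC in knockdown was 0.18 (SE 0.17, 95% interval -0.22 to 0.57), with an adjusted p of 0.852, and it was 0.12 (SE 0.33) without CTR2 and KD1-1. Within a sample EGFR exceeded ERBB2 per length by 4.05 times in CTR1, 2.86 times in CTR2, 4.24 times in KD1-1, 5.83 times in KD1-2, 4.08 times in KD2-1 and 3.77 times in KD2-2. The log2 ratio was 1.77 ± 0.35 (SD, n = 2) in the controls and 2.14 ± 0.28 (SD, n = 4) in knockdown. This difference of 0.38 gave p = 0.333 in a two-sided exact permutation test, which cannot go below 0.0667 with 4 against 2 samples. Without CTR2 and KD1-1 it was 0.15.

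ERBB3 (chr12:56473641-56497289, plus strand), a receptor of the neuregulins with little kinase activity of its own, followed the split between libraries rather than the hairpins. It had 16.5 CPM in CTR1, 29.1 CPM in CTR2, 26.3 CPM in KD1-1, 18.3 CPM in KD1-2, 19.0 CPM in KD2-1 and 19.1 CPM in KD2-2. The highest values were again those of CTR2 and KD1-1, although the spread was far smaller in proportion than for ESR1. The log2FC in knockdown was -0.15 (SE 0.28, 95% interval -0.79 to 0.49; adjusted p = 0.931), and without CTR2 and KD1-1 it turned to 0.17 (SE 0.40, unadjusted p = 0.672). The fourth receptor, ERBB4, which belongs to the ERBB list below, had 5.16 and 4.68 CPM in CTR2 and KD1-1 and from 0.112 to 0.354 CPM in the other 4, and was picked out after its values were seen.

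The ligands, adaptors and inhibitors of these receptors were taken as a list of 19 genes, of which 16 were tested. At an unadjusted p under 0.05 in knockdown, 1 was higher and 2 were lower, 3 of 16 against 7.68% of all genes, and 0 passed the adjusted threshold. The list had a median log2FC of 0.03, against -0.04 over all genes tested. HBEGF, heparin-binding EGF-like growth factor and the most abundant ligand per length, had 169 and 136 CPM in the controls, 161 and 297 CPM with sh-MIR100HG-1, and 274 and 335 CPM with sh-MIR100HG-2. KD1-1 lay between the controls and the other 3 knockdown samples above them (log2FC 0.79, SE 0.27, unadjusted p = 0.0191, adjusted p = 0.575). BTC, which encodes betacellulin, had 3.85 and 6.11 CPM in the controls and 0.992 to 4.10 CPM in knockdown, where KD2-1 overlapped the controls (log2FC -1.39, SE 0.47, adjusted p = 0.562). EGF had 5.40 and 10.3 CPM in the controls and 2.60 to 7.62 CPM in knockdown, with a log2FC of -0.97 (SE 0.41, adjusted p = 0.642).

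Among the other ligands TGFA, named after its values were seen, had 65.5 and 85.1 CPM in the controls. In knockdown it had 51.8 CPM in KD1-1, 14.0 CPM in KD1-2, 52.3 CPM in KD2-1 and 18.7 CPM in KD2-2, so all 4 lay below both controls (log2FC -1.14, SE 0.51, adjusted p = 0.664). Of the 16 tested genes of the list this held for 2, TGFA and NRG2, against 9.07% of all genes. The samples numbered 2 of both hairpins were the lowest. ERRFI1, which encodes the EGFR inhibitor MIG6, was the most abundant gene of the list per length and had a log2FC of 0.27 (SE 0.23), and the adaptor SHC1 had one of -0.07 (SE 0.25). With CTR2 and KD1-1 left out, the log2FC was 0.83 for HBEGF, -1.23 for BTC, -0.81 for EGF and -1.56 for TGFA. The directions stayed, while BTC and EGF moved towards 0 and TGFA away from it.

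**Figure D3:**
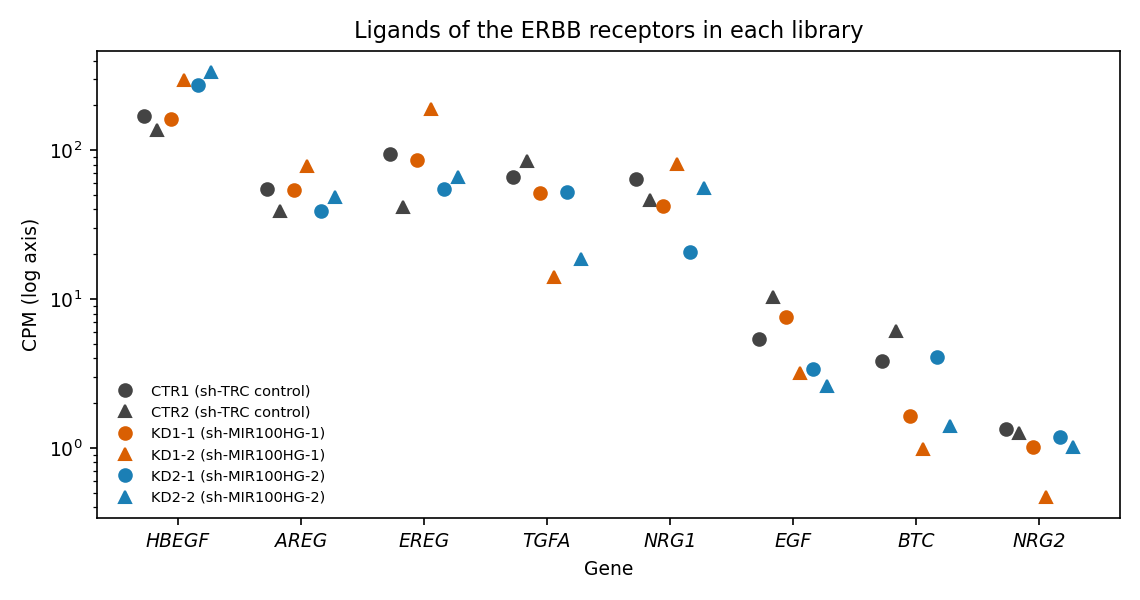
CPM on a log axis of the 8 tested ERBB ligands in each of the 6 libraries, with colour for the hairpin and shape for the replicate. HBEGF lies between 136 and 335 CPM and is higher than both controls in 3 of 4 knockdown libraries, and TGFA is lower than both controls in 4 of 4.

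FOXA1 (chr14:38059189-38065264, minus strand) was close to 0 outside 2 libraries. It had 0.112 CPM in CTR1 (6 counts), 1.22 CPM in CTR2 (72 counts), 1.22 CPM in KD1-1 (81 counts), 0.0236 CPM in KD1-2 (1 count), 0.0441 CPM in KD2-1 (2 counts) and 0.160 CPM in KD2-2 (8 counts). The 2 sh-MIR100HG-1 libraries differed from each other beyond counting error: the exact 95% interval was 0.968 to 1.52 CPM in KD1-1 and 0.000598 to 0.132 CPM in KD1-2. The log2FC in knockdown was -1.37 (SE 1.20, 95% interval -4.11 to 1.37; adjusted p = 0.831). Without CTR2 and KD1-1, FOXA1 did not pass the filter on low counts and had no test.

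GATA3 (chr10:8095567-8117161, plus strand) was present in every library within a narrow range. It had 11.4 and 13.0 CPM in the controls, 12.5 and 11.3 CPM with sh-MIR100HG-1, and 9.87 and 10.2 CPM with sh-MIR100HG-2. The sh-MIR100HG-2 samples were the lowest of the 6, and the sh-MIR100HG-1 samples overlapped the controls. The log2FC in knockdown was -0.16 (SE 0.22, 95% interval -0.66 to 0.35; adjusted p = 0.902). For sh-MIR100HG-2 alone it was -0.28 (unadjusted p = 0.307), and without CTR2 and KD1-1 the knockdown value was -0.10 (SE 0.43).

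CD44 (chr11:35160417-35253949, plus strand) was the one listed gene whose 2 sh-MIR100HG-1 samples lay outside the controls on the low side. It had 687 and 828 CPM in the controls, 548 and 538 CPM with sh-MIR100HG-1, and 957 and 673 CPM with sh-MIR100HG-2. The sh-MIR100HG-2 samples lay on both sides of the controls. Against sh-TRC, CD44 had a log2FC of -0.48 with sh-MIR100HG-1 (SE 0.23, unadjusted p = 0.0724, adjusted p = 0.722) and of 0.11 with sh-MIR100HG-2 (unadjusted p = 0.662). The difference between the hairpins was 0.58 on the log2 scale (SE 0.23, 95% interval 0.05 to 1.12), where p was 0.0355 unadjusted and 0.509 adjusted by edgeR. With both libraries left out it was 0.60 (unadjusted p = 0.130). For the mean of both hairpins CD44 had a log2FC of -0.19 (SE 0.20; adjusted p = 0.868), and of -0.06 (SE 0.34) without CTR2 and KD1-1.

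Counted together, 0 of the 7 tested genes passed the adjusted threshold in any of the 4 comparisons. In knockdown 1 gene had a positive and 6 a negative log2FC, with a median of -0.19 against -0.04 over all genes. This lean depends on CTR2 and KD1-1: in the fit that leaves them out 3 of 6 genes were positive and 3 negative, with a median of 0.03. At an unadjusted p under 0.05 there were 0 of 7, against 7.68% of all genes. With sh-MIR100HG-1 it was 0 of 7, against 6.87%, and with sh-MIR100HG-2 1 of 7 (ESR1, lower), against 8.86%. Between the hairpins it was 2 of 7 (ESR1 lower and CD44 higher), against 9.45%, and at the adjusted threshold 0%. For 0 of 7 genes were all 4 knockdown samples above both controls, as they were for 8.40% of all genes, and for 0 of 7 were all below, as for 9.07%. A p above the threshold does not show that the groups were alike, and the 95% intervals bound the difference. For the mean of both hairpins those of ERBB2, EGFR, GATA3, ERBB3 and CD44 lay between -0.79 and 0.57 on the log2 scale. For a single hairpin against sh-TRC they were wider, from -1.01 (CD44, sh-MIR100HG-1) to 0.71 (EGFR, sh-MIR100HG-1). Between the hairpins that of CD44 reached 1.12. For ESR1 and FOXA1 they reached from -4.11 to 1.37.

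**Figure D4:**
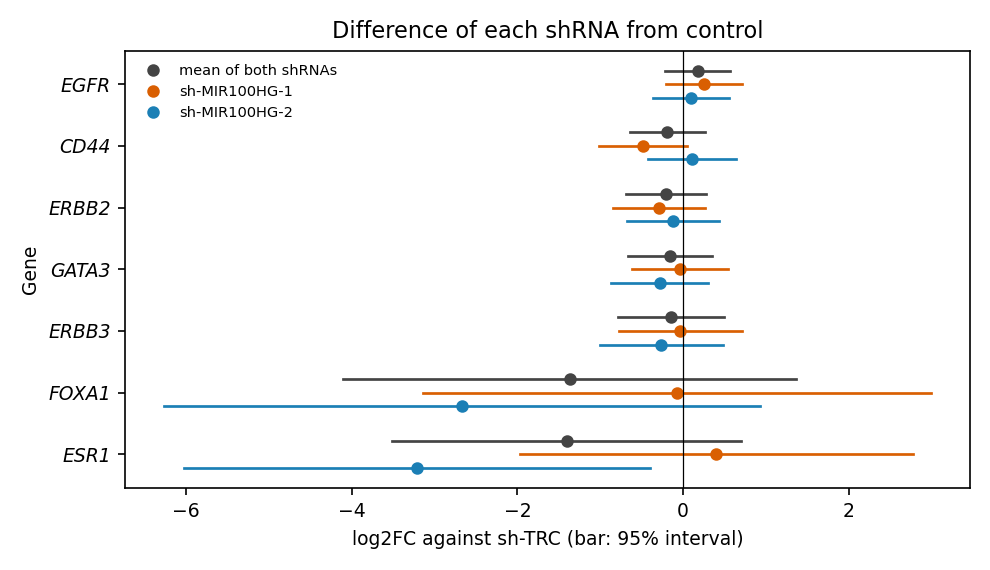
log2FC against sh-TRC of the 7 tested genes, for the mean of both hairpins and for each hairpin, with bars for the 95% interval of the fit. The intervals of EGFR, CD44, ERBB2, GATA3 and ERBB3 cover 0 and are short, and those of FOXA1 and ESR1 are several times as wide.

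The other steroid receptors and their coregulators formed a list of 15 genes, all tested. At an unadjusted p under 0.05, 1 was higher and 0 were lower, 1 of 15 against 7.68% of all genes, and 0 passed the adjusted threshold (median log2FC -0.00048 against -0.04 over all genes). Among the most abundant genes of the list per length were ESRRA and NR3C1, the glucocorticoid receptor. NR3C1 had 254 and 248 CPM in the controls and 223 to 278 CPM in knockdown. NCOA3, a coactivator of steroid receptors also known as AIB1, had 112 and 93.7 CPM in the controls, 123 and 180 CPM with sh-MIR100HG-1 and 140 and 158 CPM with sh-MIR100HG-2. The controls were the lowest libraries (log2FC 0.55, SE 0.22, adjusted p = 0.639). The related coactivator NCOA1 did likewise, with 38.1 and 35.3 CPM in the controls and 45.3 to 52.5 CPM in knockdown (log2FC 0.39, SE 0.18, adjusted p = 0.669). In 3 of the 15 genes all knockdown samples were above both controls (NCOA1, NCOA3 and EP300), against 8.40% of all genes. With CTR2 and KD1-1 left out, 0 genes of the list were higher at an unadjusted p under 0.05. ESR2, the second oestrogen receptor, had 0.661 to 1.69 CPM.

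Of 14 oestrogen-responsive genes 13 were tested. In the fit of all 6 libraries 0 had an unadjusted p under 0.05 in knockdown in either direction. Their median log2FC was -0.14, with 3 positive and 10 negative, and it turned to 0.12, with 7 positive and 6 negative, when CTR2 and KD1-1 were left out. The most abundant were IGFBP4, which binds insulin-like growth factors, CCND1, which encodes cyclin D1, and XBP1, a factor of the unfolded protein response. IGFBP4 had 1978 and 2662 CPM in the controls and 1889 to 2731 CPM in knockdown. CCND1 had 532 and 525 CPM in the controls and 571 to 695 CPM in knockdown (log2FC 0.25, SE 0.16, adjusted p = 0.764). It was the 1 of 13 genes with all knockdown samples above both controls, against 8.40% of all genes. The classical oestrogen target TFF1 had 7.98 CPM in CTR1 and 24.6 CPM in CTR2, and 5.64 to 19.5 CPM in knockdown, and its controls lay far apart (log2FC -0.86, SE 0.53, adjusted p = 0.739). For TFF1 too the direction turned when both libraries were left out, to a log2FC of 0.13 (SE 0.61). CA12, a carbonic anhydrase, had a log2FC of -0.80 (SE 0.41, adjusted p = 0.680; -1.38 with both left out) and STC2 one of -0.57 (SE 0.33, adjusted p = 0.722).

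Luminal epithelial genes were counted on a list of 21, of which 19 were tested. At an unadjusted p under 0.05, 0 were higher and 2 were lower in knockdown, 2 of 19 against 7.68% of all genes, and 0 passed the adjusted threshold. The median log2FC was -0.31, against -0.04 over all genes. MUC1, a membrane mucin, had 18.4 CPM in CTR1, 35.0 CPM in CTR2 and 12.2 to 18.5 CPM in knockdown (log2FC -0.75, SE 0.28, adjusted p = 0.615). SPDEF, an ETS factor of luminal and secretory cells, had 53.2 and 95.9 CPM in the controls and 25.3 to 55.1 CPM in knockdown (log2FC -0.83, SE 0.32, adjusted p = 0.626). In both genes CTR2 was the highest sample and CTR1 overlapped the knockdown samples, and with CTR2 and KD1-1 left out the log2FC was -0.31 for MUC1 and -0.62 for SPDEF. Without CTR2 and KD1-1, 0 genes of the list were at an unadjusted p under 0.05 and the median was -0.05. The simple epithelial keratins KRT19, KRT7 and KRT8 were the most abundant of the list, and KRT8 had 709.7 to 1177 CPM over the 6 samples. Transcripts of these keratins were abundant in cells where PGR was near 0, as were FOXA1 and ESR1 outside CTR2 and KD1-1. Other genes of the list, named after their values were seen, were low. Averaged over the 6 samples, CDH1 had 0.559 RPKM, ESRP1 0.0350 RPKM and GRHL2 0.0203 RPKM, and TFAP2B had 0 counts in every library. The keratins therefore do not stand for the whole list.

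Of 15 basal epithelial genes 12 were tested. In the fit of all 6 libraries 0 had an unadjusted p under 0.05 in either direction (median log2FC 0.11). FOXC1, a transcription factor of basal-like breast cancer, had 27.2 to 42.2 CPM. KRT17 had 10.9 to 30.7 CPM, with its 2 high knockdown values in the samples numbered 2. TRIM29 had 11.5 and 21.3 CPM in the controls, 10.8 and 28.9 CPM with sh-MIR100HG-1, and 28.7 and 74.2 CPM with sh-MIR100HG-2 (log2FC 0.96, SE 0.51, adjusted p = 0.694). Its log2FC was larger with CTR2 and KD1-1 left out, at 1.74 (SE 0.54), where CTR1 was the only control. TP63 had at most 4.36 CPM. SOX10, a neural crest factor, had 1.51 and 1.49 CPM in CTR2 and KD1-1 and at most 0.236 CPM in the others.

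Partners of CD44 and CD24, with markers used for stem-like cells, made a list of 23 genes, of which 18 were tested. At an unadjusted p under 0.05, 2 were higher and 0 lower, 2 of 18 against 7.68% of all genes, and 0 passed the adjusted threshold (median log2FC -0.07). Both of the higher genes act at the membrane. ADAM17, a protease that sheds HBEGF, TGF-alpha and CD44, had 46.9 and 39.8 CPM in the controls and 62.2, 62.1, 62.2 and 55.8 CPM in KD1-1, KD1-2, KD2-1 and KD2-2 (log2FC 0.48, SE 0.19, adjusted p = 0.622). Moesin (MSN), which ties CD44 to actin, had 1186 and 1270 CPM in the controls and 1378 to 1933 CPM in knockdown (log2FC 0.43, SE 0.18, adjusted p = 0.643). All 4 knockdown samples lay above both controls in both genes, as for 8.40% of all genes tested. MMP14 and ITGB1, the next most abundant genes of the list, had log2FCs of 0.21 (SE 0.19) and 0.15 (SE 0.19). SOX9 had a log2FC of -0.29 (SE 0.20). When both libraries were left out, 0 genes of this list were higher and 1 was lower at an unadjusted p under 0.05.

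The neighbours of ERBB2 on 17q12, which are co-amplified with it in HER2-positive tumours, were read for comparison with its level. Of 9 neighbours 8 were tested, and 0 had an unadjusted p under 0.05 (median log2FC -0.12). ORMDL3 was highest at 16.4 RPKM, averaged over the 6 samples, MED1 had 16.1 RPKM and STARD3 12.9 RPKM. ERBB2 itself, at 6.94 to 11.3 RPKM per sample, lay within the range of its neighbours, which began at 0.0541 RPKM for PNMT. In 2 of the 8 all 4 knockdown samples lay above both controls (ORMDL3 and STARD3), against 8.40% of all genes, and in 2 all lay below (PGAP3 and TCAP), against 9.07%. PGAP3 had a log2FC of -0.72 (SE 0.32, adjusted p = 0.663) and ORMDL3 one of 0.42 (SE 0.19, adjusted p = 0.664). TCAP, which had at most 2.96 CPM, had a log2FC of -0.54 (SE 0.36).

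Markers of other cell types were few. Of 9 markers 8 were listed and 5 tested, and their summed level was 24.3 to 24.4 CPM in the controls and 51.6 to 82.3 CPM in knockdown. Most of that sum was the collagen gene COL1A1, with 20.2 and 17.2 CPM in the controls and 45.5 to 78.0 CPM in knockdown (log2FC 1.60, SE 0.21, adjusted p = 0.381). The leukocyte gene PTPRC had at most 0.689 CPM, the T-cell gene CD3E at most 0.149 CPM and albumin (ALB) at most 0.261 CPM. LYZ had 0.632 to 3.67 CPM and LUM 0.543 to 2.93 CPM. In COL1A1 all 4 knockdown libraries lay above both controls, as for 8.40% of all genes, and in MIR100HG all 4 lay below, as for 9.07%. Among the tested receptor and factor genes this held for 0 of 7 in either direction, which is near these shares.

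The genes whose profiles over the 6 samples were most like ESR1, FOXA1 and ERBB3 include genes with the same split between libraries. The measure was Pearson's r of log2 CPM over 6 samples that share a cell line and, within a group, a hairpin, and it is given as a description. For ESR1 they were ALK (r = 0.995), RGPD3 (0.992) and MYB (0.987). For FOXA1 they were BLK (0.995), CD33 (0.994) and TMPRSS2 (0.990). For ERBB3 they were TEK (0.984), FAM50B (0.976) and SOX10 (0.975). ALK had 12.4 CPM in CTR2 and 14.1 CPM in KD1-1 and at most 1.49 CPM elsewhere, and BLK, a kinase of B cells, had 3.02 and 3.58 CPM there and at most 0.428 CPM elsewhere. GATA3 was most like DDB2 (0.983) and PIK3CG (0.983). Among the listed genes r was 0.859 for ESR1 with FOXA1, 0.891 for ESR1 with ERBB3, 0.930 for ERBB3 with FOXA1 and 0.907 for ESR1 with GATA3. EGFR and CD44 did not share this profile: EGFR had r = 0.0848 and CD44 r = -0.294 with ESR1. ERBB2 was most like RABL2A (0.996) and APEH (0.995), EGFR was most like TMCO1 (0.994), PRXL2C (0.989) and ERO1A (0.989), and CD44 was most like TMEM171 (0.993), ACYP2 (0.990) and RAB13 (0.987).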

How the data were processed

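RNA-seq counts were deposited by the authors as whole reads per gene without normalization. According to the study's methods, trimmed reads were mapped to GRCh37 with STAR and counted over GENCODE exons with FeatureCounts; STAR 2.5.2a is the version in the submitters' processing notes. The strand setting is not given in the sources used here. The genes and lists were chosen with earlier results of these data known. Replicate groups and names follow the labels and the study's names. Genes with fewer than 5 counts in at least 3 samples were removed. A model with 1 mean per group was fitted to all 6 samples with edgeR 4.0.16 in R 4.3.3 (TMM, glmQLFit and glmQLFTest, 3 residual degrees of freedom), and Benjamini-Hochberg adjustment covered the 15372 genes tested. The common biological coefficient of variation was 27.8%. Intervals of log2FCs use the t distribution of that fit. CPM is TMM-scaled, and 0.125 CPM was added for values on the log2 scale. Symbols were matched by Ensembl identifier, and 779 of 27745 genes had none. CD24 had no match, so the planned ratio of CD44 to CD24 was not computed. From each list the 3 genes with the smallest p and the 3 with the highest mean RPKM are named, and for each tested gene its closest profiles; other genes were named after their values were seen. Some genes that this rule names are not reported here. Scripts were tested on simulated data. Alternatives were RLE scaling, no filter, the likelihood ratio test, DESeq2 1.42.0, a replicate block, a pseudocount of 0.5 CPM and leaving out each sample; leaving out CTR2 and KD1-1 together was added after the data were seen. Gene positions and shRNA targets were read from GRCh37 with Python 3.11.15.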

Additional observations from a re-analysis of the deposited data

How the results depend on the processing

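No tested receptor or factor gene passed an adjusted p of 0.05 in knockdown under any setting run. Genes called over the whole table did depend on the setting. In knockdown, with sh-MIR100HG-1, with sh-MIR100HG-2 and between the hairpins, 392, 227, 517 and 679 genes were called with no filter on low counts, 109, 34, 121 and 91 with the likelihood ratio test and 129, 65, 165 and 103 with DESeq2, against 0 in each and 0 with RLE scaling. Without CTR2 and KD1-1 the counts were 1, 0, 12 and 14. Leaving out 1 sample at a time gave 0 to 1, 0 to 3, 0 to 5 and 0 to 7. The counts above 0 came without CTR1 (1, 3 and 6 genes, the last between the hairpins) and without CTR2 (5 with sh-MIR100HG-2 and 7 between the hairpins). The direction of ESR1, FOXA1 and ERBB3 in knockdown rests on CTR2. Without it their log2FCs were 1.37, 1.19 and 0.32, and over all samples left out singly they ranged from -2.29 to 1.37, from -3.68 to 1.19 and from -0.50 to 0.32. Without CTR2 and KD1-1 together, ESR1 had 0.60 and ERBB3 0.17, and FOXA1 could not be fitted. The cause was not tested. With no filter ESR1 had the lowest adjusted p of these genes, 0.212. The log2FC of CD44 ranged from -0.32 to -0.05, that of EGFR from 0.11 to 0.24, that of GATA3 from -0.25 to -0.06 and that of ERBB2 from -0.38 to -0.0047, the last without CTR2. The difference in the log2 ratio of EGFR to ERBB2 ranged from 0.13 without CTR2 to 0.63 without CTR1. By replicate number, deviations from the group mean correlated at -0.21 between sh-TRC and sh-MIR100HG-1 and at 0.02 between sh-TRC and sh-MIR100HG-2. Between the hairpins the correlation was 0.50, so knockdown samples with the same number shared part of their deviation. The source of this shared part was not tested. A fit with a replicate block called 0 genes in each comparison and gave ESR1 a log2FC of -1.28. With 2 samples a group, the intervals of ESR1 and FOXA1 for the mean of both hairpins span both directions. For ESR1 the interval lay below 0 with sh-MIR100HG-2 (-6.03 to -0.39) and between the hairpins (-6.45 to -0.78), though neither passed the adjusted threshold. No difference in PGR was detectable at this depth.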
